A study of Mus musculus with 3 samples.

Results

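The checkpoint and exhaustion genes of T cells, a set of 8 genes, were followed through the lymphocytes of mouse blood. They are Ctla4, Icos, Tox, Pdcd1, Lag3, Havcr2, Tigit and Cd160, taken by symbol from the 32285 genes counted in each library, and each symbol was found once. Peripheral blood mononuclear cells (PBMCs) of C57BL/6 mice, all female per the study's methods, went through single-cell sequencing of RNA 3′ ends in droplets. Young mice were 8 weeks old and aged mice 16 months old, and the labels give neither a treatment, while per the methods control mice were injected with saline. Aged-GA mice were also 16 months old and had been given glycyrrhizic acid (GA), a saponin of licorice, for 1 month, by tail vein per the methods. Each group was 1 library, and although the study names several mice a group, the files do not tell the cells of different mice apart. Differences between libraries therefore have no replicate check, and intervals on them cover counting error only. Differences between cell types could be tested, because each library held all of them.

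Checkpoint receptors are surface proteins that T cells and NK cells show after activation. Most of them bind ligands on other cells and restrain the signal of the T-cell receptor, and T cells that meet antigen for a long time, as in chronic infection or tumours, carry several of them at once, a state called exhaustion. Regulatory T cells carry some of the same receptors at rest, and ICOS is the exception in the set, since it costimulates T cells.

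Cells were sorted by their counts of unique molecular identifiers (UMIs, each standing for 1 captured RNA molecule), using marker genes that do not include any of the 8. T cells held UMIs of Cd3d, Cd3e or Cd3g and almost none of B-cell or myeloid genes. The CD4 T gate took those with Cd4 and without Cd8a, Cd8b1 and Foxp3, the CD8 T gate those with Cd8b1 and without Cd4, and the regulatory T gate those with Foxp3, the defining transcription factor of regulatory T cells. NK cells held Ncr1, Klrb1c or Klre1 and no Cd3 gene. In young, aged and aged-GA mice the gates held 995, 496 and 670 CD4 T cells, 1728, 732 and 1433 CD8 T cells, 70, 51 and 45 regulatory T cells, and 299, 223 and 222 NK cells. The regulatory T gate excluded Cd8a and Cd8b1 but did not need Cd4. Of its cells, 50, 31 and 19 held only 1 UMI of Foxp3, and 50, 23 and 19 held no UMI of Cd4. The part of this in the results for the gate was not tested. A B-cell gate of 2161, 3914 and 4840 cells, which should lack most of the genes, was taken as a background. It does not measure free RNA alone, since 1 aged B cell held 9 UMIs of Ctla4 and 1 aged-GA B cell 15. The median cell held between 3038 and 7292 UMIs in the 4 gates. T cells that met no T gate numbered 2443 of 5236, 729 of 2008 and 1064 of 3212, so the gates are samples of each type and not all its cells. Levels are given as counts per 1e6 UMIs (CPM), the UMIs of a gene set against all UMIs of the gated cells of a library.

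The gate names were checked against markers, with values in the order young, aged and aged-GA. Gzma, a granzyme of NK cells, was at 16052, 14590 and 13827 CPM in the NK gate, and Cd5, a T-cell gene, at 0, 1.24 and 1.25 CPM there. Other T-cell markers were not near 0 in the NK gate. Lck was at 203, 220 and 279 CPM, and all 6 summed to 731, 773 and 824 CPM. In the CD4 T gate the 6 summed to 3718, 3887 and 4146 CPM. The 2 CD8 T markers, Nkg7 and Ctsw, summed to 690, 1717 and 1376 CPM in the CD8 T gate. Their sum was 80.0, 237 and 220 CPM in the CD4 T gate and 5092, 4786 and 4754 CPM in the NK gate. Ikzf2, a transcription factor of regulatory T cells, was at 345, 1106 and 721 CPM in the regulatory T gate, and in the CD4 T gate at 16.3, 134 and 145 CPM. Few barcodes were shared between libraries, with 0 to 2 in the gates for each pair of libraries. RNA of some other blood cells was higher in the aged libraries. The 3 neutrophil markers, all detected, summed to 5.44, 237 and 142 CPM in the CD4 T gate, and the 2 erythroid markers to 713, 5226 and 4057 CPM. All 4 macrophage markers were found there too, at 73.5, 247 and 146 CPM in sum. Other lists went otherwise: the 4 B-cell markers summed to 154, 154 and 163 CPM in the CD4 T gate, 139, 121 and 143 CPM in the CD8 T gate and 168, 712 and 564 CPM in the regulatory T gate. The 3 gamma-delta T markers summed to 24.2, 10.6 and 7.98 CPM in the CD4 T gate and 31.7, 13.0 and 3.92 CPM in the regulatory T gate. The part of these in the results between libraries was not tested.

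The genes lie on separate chromosomes except for a cluster on chromosome 1 (mm10, GENCODE M21). There Ctla4 (chr1:60887000-60915832) and Icos (chr1:60977927-61000320) follow Cd28 (chr1:60716800-60773359) on the forward strand. Pdcd1 lies on the same chromosome at chr1:94038305-94052553 on the reverse strand. Cd160 (chr3:96798763-96829351), Tox (chr4:6686353-6991557), Lag3 (chr6:124904361-124911705) and Tigit (chr16:43648867-43664146) are on the reverse strand, and Havcr2 (chr11:46454935-46481255) is on the forward strand.

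The promoters of Ctla4, Pdcd1 and Cd160 are shown because results below turn on these genes: Ctla4 in regulatory T and CD4 T cells, Cd160 in NK and CD8 T cells, and Pdcd1, the gene of PD-1, in the comparison of Gzmk with naive CD8 T cells. Each is the 250 bases before the RefSeq start in GRCm38.p6, read along the gene's strand. The windows are chr1:60908775-60909024 on the forward strand for Ctla4, chr1:94052554-94052803 on the reverse strand for Pdcd1 and chr3:96829352-96829601 on the reverse strand for Cd160. The Ctla4 window lies inside the longer GENCODE gene. Capitals mark the letters of 4 motifs searched on both strands, where matches may overlap: GGAAA (the core bound by NFAT, the factor that the T-cell receptor activates), TGANTCA (AP-1), TGTGGT (RUNX) and GGTGTG (a T-box site of T-bet and Eomes).
Ctla4: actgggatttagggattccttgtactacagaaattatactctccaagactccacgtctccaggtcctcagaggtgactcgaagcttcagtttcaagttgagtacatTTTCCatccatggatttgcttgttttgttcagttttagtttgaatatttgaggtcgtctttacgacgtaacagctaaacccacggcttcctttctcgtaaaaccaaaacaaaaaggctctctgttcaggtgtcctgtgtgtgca
Pdcd1: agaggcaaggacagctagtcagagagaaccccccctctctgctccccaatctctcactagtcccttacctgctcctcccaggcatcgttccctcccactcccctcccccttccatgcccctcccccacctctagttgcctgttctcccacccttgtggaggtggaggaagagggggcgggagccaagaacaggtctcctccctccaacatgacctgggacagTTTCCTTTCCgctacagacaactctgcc
Cd160: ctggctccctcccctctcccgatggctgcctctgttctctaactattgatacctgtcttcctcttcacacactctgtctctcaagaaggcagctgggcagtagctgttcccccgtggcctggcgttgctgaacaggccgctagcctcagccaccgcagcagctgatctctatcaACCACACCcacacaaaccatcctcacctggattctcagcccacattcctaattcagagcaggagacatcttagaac
The Ctla4 window held 1 match of GGAAA and the Pdcd1 window 2, side by side. The Cd160 window held 1 match of the RUNX motif and 1 of the T-box motif, which overlap. A second RefSeq start of Cd160, with the window chr3:96814522-96814771, is not printed, and it held 1 match each of GGAAA and the RUNX and T-box motifs. These letters are common: of 32851 windows of the same length, 55.6% held GGAAA, 14.0% TGTGGT, 16.3% GGTGTG and 6.75% TGANTCA. A match is a description of the letters and not a bound site.

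Ctla4, which encodes a receptor that competes with CD28 for its ligands and stops T-cell activation, was highest in regulatory T cells in each library. It was at 659 CPM (208 UMIs, 95% Poisson interval 573 to 755) in the regulatory T gate of young, 850 CPM (196 UMIs, 736 to 978) of aged and 764 CPM (195 UMIs, 660 to 879) of aged-GA mice. In the CD4 T gate it was at 85.0, 186 and 198 CPM, in the CD8 T gate at 41.7, 40.7 and 35.5 CPM, and in the NK gate at 0, 6.20 and 0 CPM, where a count of 0 (young and aged-GA) allows up to 3.02 and 3.76 CPM, from 3 counts per library. The order of the gates was the same in all 3 libraries, and the NK level lay at or below that of B cells (6.42, 10.2 and 10.1 CPM).

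Icos, whose product costimulates T cells that help B cells, had the same order as Ctla4 but with less distance between the gates. Its level was 152 CPM (48 UMIs) in the young, 286 CPM (66 UMIs) in the aged and 223 CPM (57 UMIs) in the aged-GA regulatory T gate, and 1 young cell held 19 of the 48 UMIs. The CD4 T gate had 79.6, 139 and 145 CPM, the CD8 T gate 40.9, 36.0 and 41.6 CPM, and the NK gate 7.06, 18.6 and 5.02 CPM. B cells held 0.485 to 1.36 CPM, below the NK level, which rests on 4 to 15 UMIs a library.

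Tox, a transcription factor that sets up the exhausted state in CD8 T cells, was present in all 4 gates. Regulatory T cells had 168, 221 and 157 CPM (53, 51 and 40 UMIs), CD4 T cells 83.0, 87.7 and 74.1 CPM, CD8 T cells 45.3, 44.7 and 41.3 CPM, and NK cells 34.3, 38.4 and 28.9 CPM. Each gate's 3 libraries lay close together, and the order was in every library regulatory T, CD4 T, CD8 T and NK cells. B cells had at most 1.67 CPM.

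Cd160 and Tigit were the genes of the set with higher levels in NK than in CD8 T cells in the tests that follow. Cd160, a receptor of cytotoxic cells that binds HVEM, was at 40.3 CPM (40 UMIs) in the young, 85.6 CPM (69 UMIs) in the aged and 80.3 CPM (64 UMIs) in the aged-GA NK gate, and at 11.5, 24.6 and 25.6 CPM in CD8 T cells. CD4 T cells had 1.81, 3.67 and 3.84 CPM and regulatory T cells 0, 1 and 1 UMI, where the 0 allows up to 9.51 CPM. Tigit, a receptor that competes with CD226 for ligands of the nectin family, was at 21.2 CPM (21 UMIs) in young NK cells, and at 3.72 and 3.76 CPM (3 UMIs each) in aged and aged-GA NK cells. The 3 UMIs of the aged-GA library were in 1 cell. In CD8 T cells Tigit had 1.91, 2.57 and 0.662 CPM and in CD4 T cells 1.61, 3.22 and 2.36 CPM, and regulatory T cells 3.17, 13.0 and 0 CPM on 1, 3 and 0 UMIs, where the 0 allows up to 11.8 CPM.

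Pdcd1, Lag3 and Havcr2 were near the floor. Pdcd1 encodes PD-1, which recruits phosphatases to the T-cell receptor, and had 4, 9 and 30 UMIs in the CD4 T gate (0.806, 4.13 and 8.86 CPM) and 4, 19 and 11 in the CD8 T gate (0.363, 4.45 and 1.04 CPM). The 19 UMIs of aged CD8 T cells were in 12 cells, with 5 in 1 of them. NK cells held none in any library, which allows up to 3.02, 3.72 and 3.76 CPM. Lag3, a CD4 homologue that binds MHC class II, had 3, 29 and 41 UMIs in the CD4 T gate (0.604, 13.3 and 12.1 CPM) and 10, 20 and 24 in the CD8 T gate (0.908, 4.68 and 2.27 CPM). Regulatory T cells held 0, 9 and 2 UMIs of Lag3, where the 0 allows up to 9.51 CPM. NK cells held 2, 8 and 3 UMIs of Lag3 (2.02, 9.92 and 3.76 CPM). Young mice were thus lowest for both genes in the CD4 T and CD8 T gates. For Pdcd1 in regulatory T cells they were highest, at 12.7 CPM against 8.68 and 3.92 CPM, on 4, 2 and 1 UMIs. Havcr2, which encodes TIM-3, had 3, 3 and 0 UMIs in CD4 T and 5, 8 and 5 in CD8 T cells. Of its UMIs in the cells that passed the study's filters, the 4 gates held 14.8%, 2.47% and 3.83%. For Ctla4 the 4 gates held 46.2%, 39.6% and 38.2%. Most UMIs of Icos, Tox, Pdcd1 and Lag3 also lay outside them in each library. Of the Havcr2 UMIs, 57.4%, 87.8% and 86.6% were in cells outside the T, NK and B gates. That share includes cells left out of the gates for over 10% haemoglobin UMIs. For Icos it was 9.16%, 31.0% and 33.9%.

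**Figure D1:**
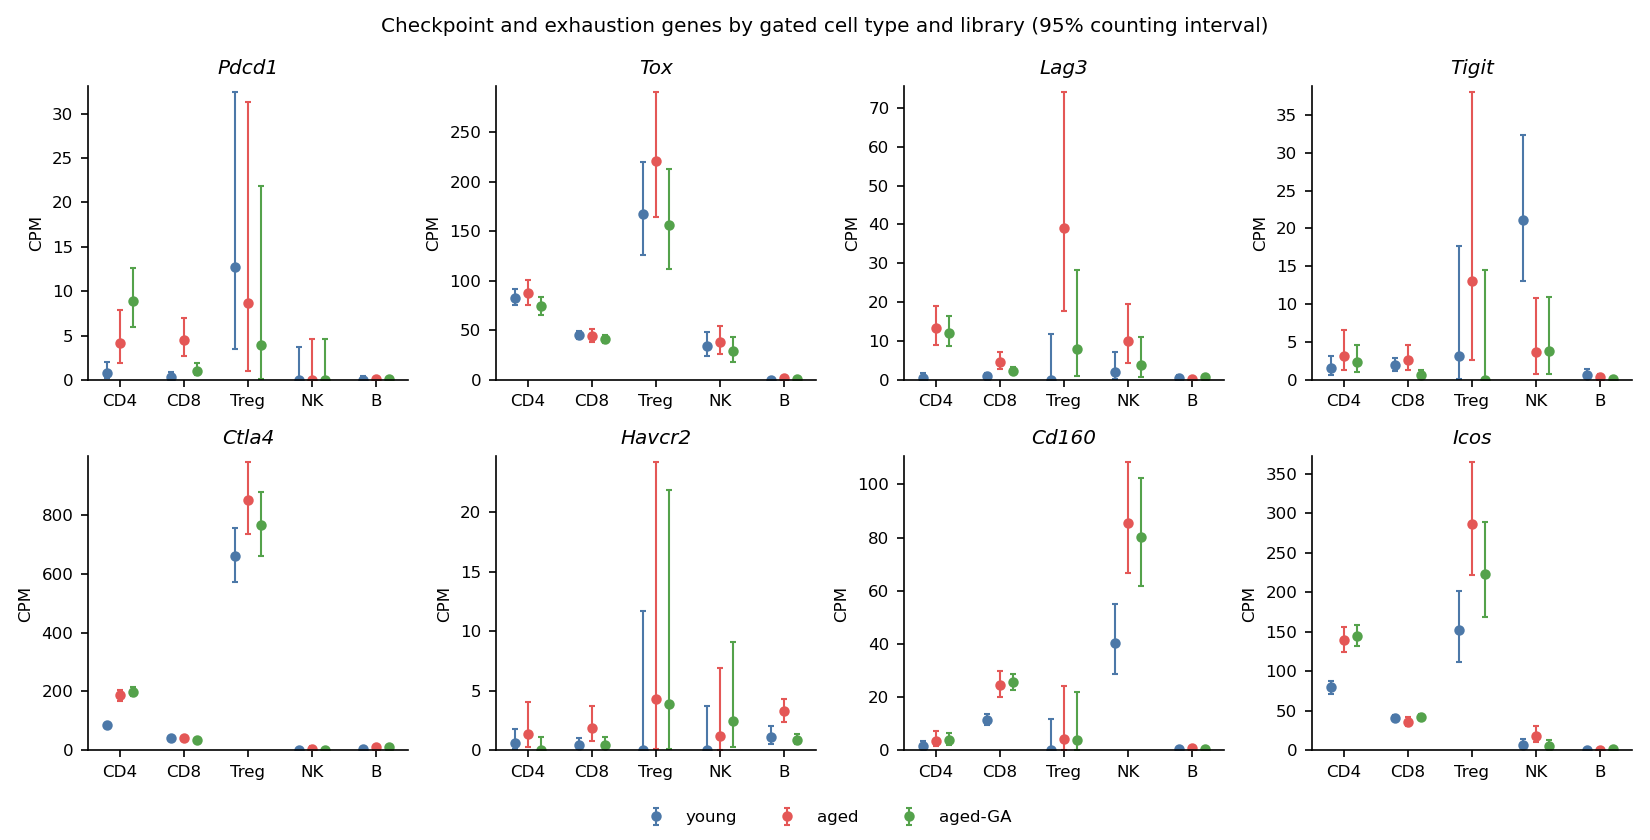
Level in CPM of each of the 8 genes (1 panel each, linear axis from 0) in CD4 T, CD8 T, regulatory T, NK and B cells of the young, aged and aged-GA libraries, with bars for the 95% Poisson counting interval. Ctla4, Icos and Tox step down from regulatory T to CD4 T to CD8 T cells in all 3 libraries, Cd160 is highest in NK cells, and Pdcd1, Lag3 and Havcr2 rest on few UMIs.

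The differences between cell types were tested by edgeR's quasi-likelihood test on UMIs summed per gate and library, with the library as a block, and p-values were adjusted by Benjamini-Hochberg over all genes tested. Of the 8 genes, 7 had enough counts to be tested and Havcr2 did not. Standard errors (SE, given after ±) were not taken from the fit. They were computed as the absolute log2 fold change divided by the square root of the test's F statistic. The 3 libraries stood as replicates, so the spread in these tests includes any effect of age or GA that differed between the gates.

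Regulatory T cells differed from CD4 T cells in 2 of the 7 genes, where 3.47% of all 9471 genes tested were called. Ctla4 was higher by 2.16 ± 0.217 on the log2 scale (SE, edgeR adjusted p = 2.44e-05) and Tox by 0.97 ± 0.138 (edgeR adjusted p = 0.000624). Without the aged library the Tox difference was 0.88, with an adjusted p of 0.0509 in edgeR (7.01e-07 to 0.0509 over the alternatives). Icos was 0.69 ± 0.214 higher and did not pass (edgeR adjusted p = 0.0856, with 0.00521 to 0.305 over the alternatives). Without the young library, in which 1 cell held much of the Icos, its edgeR adjusted p was 0.0107. Pdcd1, Lag3, Tigit and Cd160 did not pass, with edgeR adjusted p of 0.712 to 0.884 on few UMIs.

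CD8 T cells differed from CD4 T cells in 5 of the 7 genes, against 13.7% of all genes. Cd160 was higher by 2.87 ± 0.202 (edgeR adjusted p = 3.16e-08). Ctla4 was lower, with a log2 fold change of -1.74 ± 0.208 (edgeR adjusted p = 1.76e-05), and so were Icos at -1.37 ± 0.170 (2.57e-05) and Tox at -0.72 ± 0.104 (0.000125). Lag3 was lower at -1.42 ± 0.419 with an edgeR adjusted p of 0.0306, the least firm of these calls. Its adjusted p was 0.183 by DESeq2, 0.291 in edgeR without the aged library and 0.657 without the aged-GA library (4.85e-05 to 0.657 over the alternatives). Against CD4 T cells without a UMI of Il2ra or Ikzf2, Lag3 was at -0.56 (edgeR adjusted p = 0.578). Of the 3 CD28 relatives in the set, Ctla4 and Icos were thus higher on the CD4 side, and Pdcd1 did not pass (edgeR adjusted p = 0.199, without the young library 0.0231 and 0.0231 to 0.991 over the alternatives).

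NK cells differed from CD8 T cells in 5 of the 7 genes, against 35.7% of all genes. Cd160 was higher by 1.35 ± 0.148 (edgeR adjusted p = 1.32e-06) and Tigit by 2.17 ± 0.596 (0.00846), and without the young or without the aged library Tigit had too few UMIs to be tested. Ctla4 at -4.73 ± 0.584, Icos at -2.40 ± 0.326 and Tox at -0.79 ± 0.148 were lower (edgeR adjusted p = 4.95e-06, 1.46e-05 and 0.000425). The size for Ctla4 depends on the prior count, since NK cells held 0, 5 and 0 UMIs, and it was -10.37 to -3.91 over the alternatives. Against CD4 T cells 6 of the 7 were called, where 36.1% of all genes were. Cd160 (4.23 ± 0.213) and Tigit (1.80 ± 0.633, edgeR adjusted p = 0.0338, by DESeq2 0.0916 and 0.00500 to 0.0916 over the alternatives) were higher in NK cells, and Tox at -1.51, Icos, Ctla4 and Pdcd1 were lower. For Pdcd1 the edgeR adjusted p was 0.0306 with all libraries, 0.100 without the aged and 0.191 without the aged-GA library (0.000340 to 0.191 over the alternatives). Lag3 was called in neither (edgeR adjusted p = 0.499 and 0.297).

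**Figure D2:**
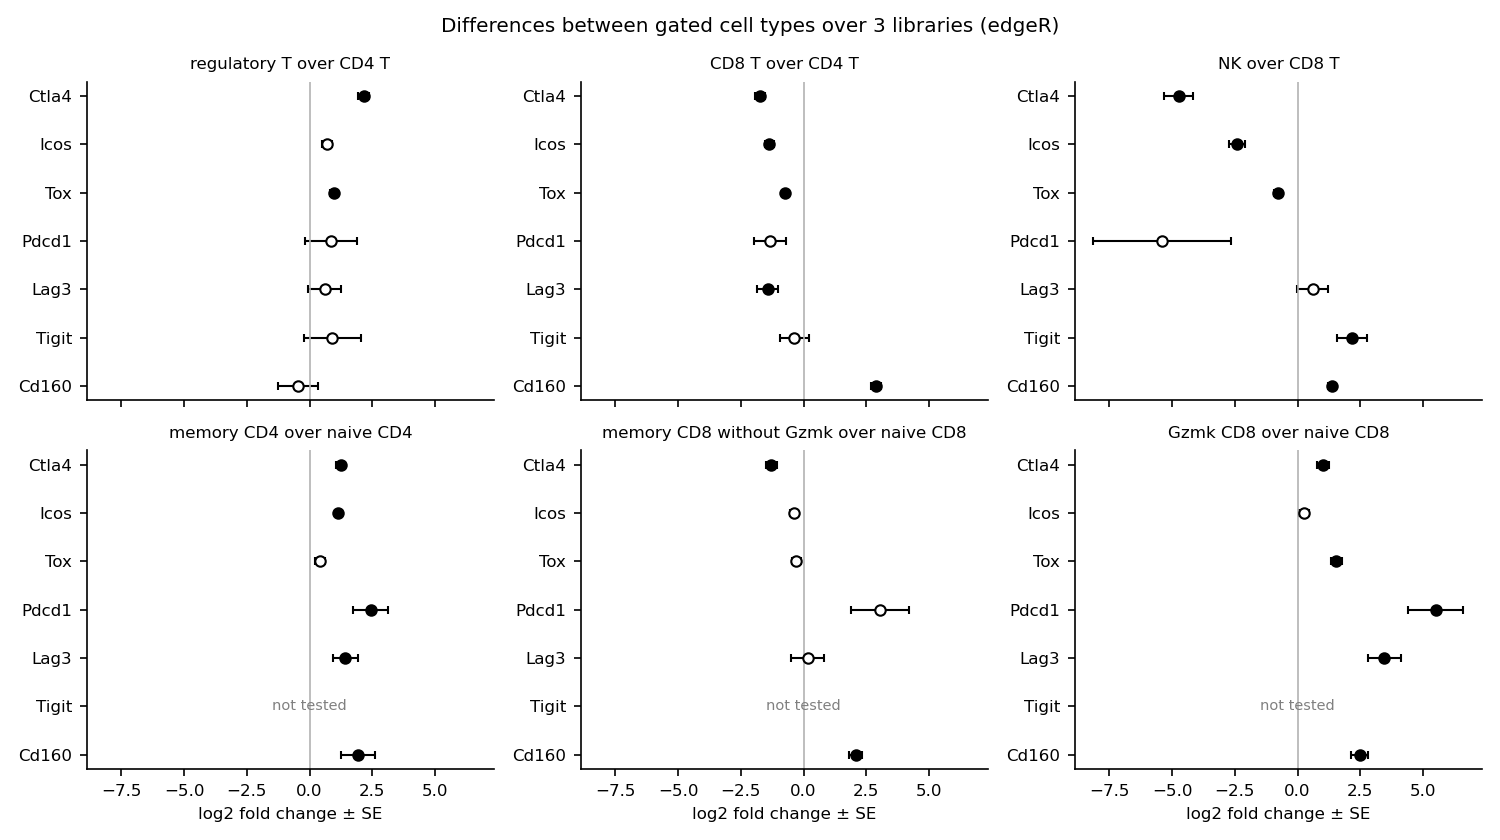
Fitted log2 fold change for each gene in 6 contrasts between cell types or states, from edgeR fits of sums per library with the library as a block. Bars are standard errors computed from the fold change and the F statistic. Filled points have an adjusted p under 0.05, and Tigit had too few UMIs for the contrasts of states. Ctla4 and Tox lie above 0 in regulatory T over CD4 T cells, Cd160 lies above 0 in both CD8 T over CD4 T and NK over CD8 T cells, and Pdcd1, Lag3, Cd160, Tox and Ctla4 lie above 0 in Gzmk over naive CD8 T cells.

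The T gates were next divided by state, and the fit over these states was added after the levels were seen. Naive cells held markers of naive T cells, among them Ccr7 and Lef1, and no S100a4 (CD4) or Ccl5 (CD8). Memory CD4 cells held at least 2 UMIs of S100a4 and memory CD8 cells at least 2 of Ccl5. Gzmk CD8 cells held the granzyme Gzmk and are mostly a subset of memory cells. The make-up of the gates differed widely between the libraries. Memory cells were 2.61%, 23.6% and 27.6% of the CD4 T gate and 15.9%, 59.8% and 64.5% of the CD8 T gate of young, aged and aged-GA mice, and Gzmk CD8 cells were 0.868%, 13.4% and 9.56% (15, 98 and 137 cells).

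Among CD4 T cells, Ctla4 was at 80.1, 141 and 116 CPM in naive and 202, 319 and 341 CPM in memory cells of young, aged and aged-GA mice. Icos was at 75.0, 97.7 and 90.9 CPM in naive and 191, 218 and 247 CPM in memory cells. Memory cells lay above naive cells in each library for both genes. In the edgeR fit Ctla4 was 1.24 ± 0.182 (adjusted p = 6.03e-06) and Icos 1.14 ± 0.137 (1.75e-07) higher in memory CD4 cells. In this contrast 5 of the 6 genes tested were called, all higher, where 18.9% of 8644 genes were called in either direction. The other calls rest on few UMIs. Pdcd1, with 1, 6 and 16 UMIs in memory CD4 cells, was higher by 2.43 ± 0.703 (edgeR adjusted p = 0.0131, without the aged-GA library 0.175, and 0.0205 to 0.175 over the alternatives). Cd160 was higher by 1.93 ± 0.661 (edgeR adjusted p = 0.0385), and each library decided its call, with 0.94 and 0.396 without young, 0.0721 without aged and 0.0590 without aged-GA mice (0.0168 to 0.396 over the alternatives). Lag3, with 0, 14 and 20 UMIs, where the 0 allows up to 16.4 CPM, was higher by 1.42 ± 0.492 (edgeR adjusted p = 0.0408, without aged 0.181, without aged-GA 0.257, and 0.0337 to 0.257 over the alternatives). Tox did not pass, at 0.41 (edgeR adjusted p = 0.173), with 0.61 and 0.00804 without the young library (0.00804 to 0.721 over the alternatives). This fit was not run without the cells that held Il2ra or Ikzf2, markers of regulatory T cells. Leaving them out took memory CD4 cells from 26, 117 and 185 to 18, 70 and 94. Ctla4 was then at 299, 283 and 255 CPM in memory and 75.0, 106 and 92.0 CPM in naive cells. Lag3 in memory cells went from 25.4 to 6.58 CPM in aged and from 21.3 to 21.1 CPM in aged-GA mice. The part of these cells in the calls was not tested.

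Among CD8 T cells, the members parted between memory cells with and without Gzmk. Memory cells without Gzmk differed from naive cells in 2 of 6 genes (12.5% of all genes). Cd160 was higher by 2.07 ± 0.244 (edgeR adjusted p = 1.66e-07), at 22.0, 35.7 and 34.2 CPM against 7.88, 6.68 and 4.34 CPM in naive cells. Ctla4 was lower at -1.29 ± 0.221 (edgeR adjusted p = 7.42e-05), at 29.1, 22.2 and 14.9 CPM against 44.4, 34.2 and 55.1 CPM. Tox at -0.30 and Lag3 at 0.16 did not pass (edgeR adjusted p = 0.348 and 0.936).

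Gzmk CD8 cells, by contrast, had higher levels than naive cells in 5 of the 6 genes (21.8% of all genes called in either direction). Pdcd1 was higher by 5.51 ± 1.10 (edgeR adjusted p = 0.000322), Lag3 by 3.46 ± 0.642 (0.000126), Cd160 by 2.47 ± 0.331 (7.92e-07), Tox by 1.55 ± 0.208 (8.14e-07) and Ctla4 by 1.00 ± 0.248 (0.00309, without the aged library 0.65 and 0.163, and 8.06e-05 to 0.163 over the alternatives). The size of the Pdcd1 change depends on the prior count, since naive CD8 cells held 1, 0 and 0 UMIs. Icos did not pass, at 0.25 (edgeR adjusted p = 0.457). Behind these are few cells: Pdcd1 had 1, 8 and 7 UMIs (8.25, 18.5 and 9.05 CPM), Lag3 3, 13 and 12 (24.8, 30.0 and 15.5 CPM) and Tox 9, 68 and 117 (74.3, 157 and 151 CPM) in young, aged and aged-GA Gzmk CD8 cells. Ctla4 had 140, 162 and 94.4 CPM there.

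Set against memory CD8 cells without Gzmk, Gzmk CD8 cells were also higher in 5 of the 6 genes (12.6% of all genes). Tox was higher by 1.85 ± 0.207 (edgeR adjusted p = 6.83e-08), Ctla4 by 2.30 ± 0.271 (1.90e-07) and Lag3 by 3.30 ± 0.577 (0.000118). Pdcd1 was higher by 2.45 ± 0.721 (edgeR adjusted p = 0.0210), and without the aged-GA library by 1.78 with a p of 0.312 (0.0127 to 0.312 over the alternatives). Icos was higher by 0.64 ± 0.202 (edgeR adjusted p = 0.0346), a call lost without the young, the aged or the aged-GA library, at 0.0570, 0.0698 and 0.317 (0.0244 to 0.317 over the alternatives). Cd160 did not pass, at 0.40 (edgeR adjusted p = 0.375).

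**Figure D3:**
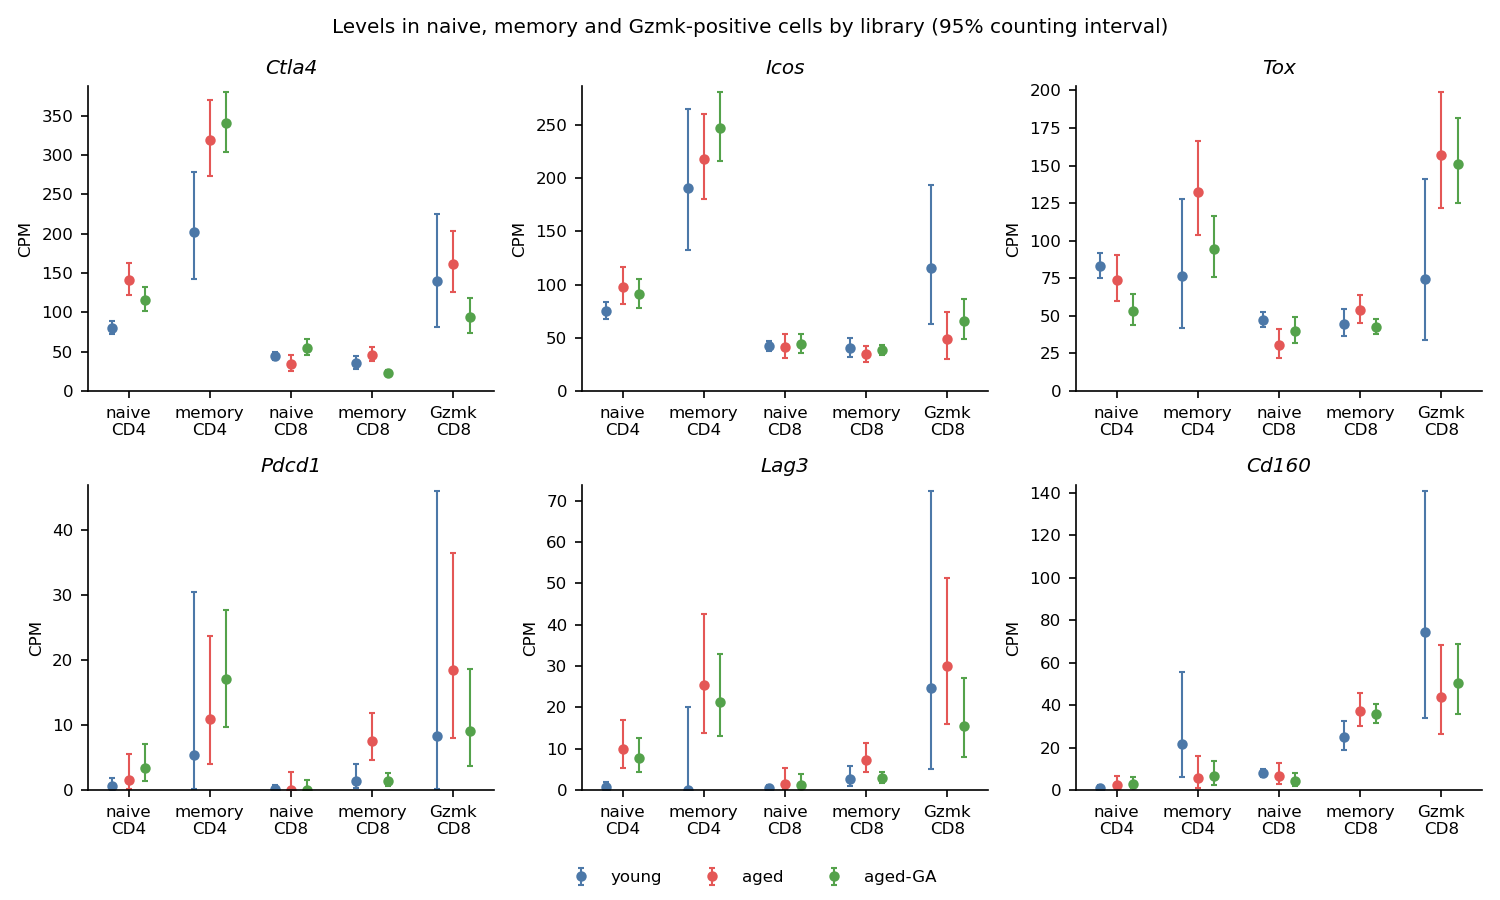
Level in CPM (linear axis from 0) of Ctla4, Icos, Tox, Pdcd1, Lag3 and Cd160 in naive CD4, memory CD4, naive CD8, memory CD8 and Gzmk CD8 cells of the young, aged and aged-GA libraries, with 95% Poisson counting intervals; memory CD8 includes most Gzmk cells. Ctla4 and Icos step up from naive to memory CD4 cells in each library, and Tox is at 157 and 151 CPM in the Gzmk CD8 cells of the aged and aged-GA libraries.

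The young and aged libraries were compared gate by gate. Age cannot be told apart here from other differences between these libraries. Per the methods, the young mice were bought from a supplier and the aged mice came from the laboratory's own reserves. The median gene was itself higher in the aged library by 0.36 on the log2 scale in CD4 T, 0.31 in CD8 T, 0.24 in regulatory T and 0.06 in NK cells, and ratios are to be read against this shift. A gene with at least 50 UMIs over both libraries was counted as past 2-fold where the log2 ratio with 1 CPM added was at least 1 either way. Ratios in the text are without added CPM, with exact 95% intervals for counting error. Ratios under an alternative have 1 CPM added, except where the alternative changes this.

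In the CD4 T gate 3 members had enough UMIs and 1, Ctla4, was past 2-fold, against 11.4% of all genes. Ctla4 was 2.19-fold higher in aged mice (log2 1.13, interval 0.93 to 1.33). Icos was 0.81 higher (0.59 to 1.03) and Tox 0.08. Over the alternatives the Ctla4 ratio was 0.82 to 1.18, and it fell short of 2-fold with CPM computed without haemoglobin, mitochondrial and ribosomal protein genes, at 0.90. The share of memory cells in the gate was higher in aged mice too, and its part in the ratio was not tested. Within naive CD4 cells the Ctla4 ratio was 0.82 (0.56 to 1.07), and within memory CD4 cells 0.66 (0.14 to 1.21). In CD4 T cells without a UMI of Il2ra or Ikzf2, a gate chosen to leave out cells with regulatory genes, Ctla4 was at 79.2, 141 and 135 CPM and its ratio was 0.82. In the naive cells of that gate Ctla4 was at 75.0 and 106 CPM in young and aged mice, a ratio of 0.49. In the memory cells of that gate Ctla4 was at 299 and 283 CPM in these libraries, a ratio of -0.08. Lag3 had too few UMIs for the count, but its 3 and 29 UMIs gave a ratio of 4.46 (2.77 to 6.82). With 1 CPM added the ratio was 3.16, and 1.52 with 3 and 6 UMIs where Il2ra and Ikzf2 cells were left out. Pdcd1 was 2.36 higher (0.52 to 4.51) on 4 and 9 UMIs.

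In the CD8 T gate 1 of 4 members was past 2-fold (7.92% of all genes), and in the NK gate 1 of 2 (3.94%), and in both gates it was Cd160. Cd160 was 2.13-fold higher in aged CD8 T cells (log2 1.09, 0.70 to 1.48) and 2.12-fold higher in aged NK cells (1.09, 0.50 to 1.69). Both lie near the limit. Over the alternatives the CD8 T ratio was 0.84 to 1.21, and it fell short of 2-fold with 5 CPM added, without a haemoglobin limit, with stricter gates, and with CPM computed without haemoglobin, mitochondrial and ribosomal protein genes. The NK ratio was 0.80 to 1.15, and it fell short with 5 CPM added, without a haemoglobin limit, and as a mean of CPM over cells. Within memory CD8 cells the ratio was 0.58 (0.08 to 1.09) and within naive CD8 cells -0.24. The 7 NK markers summed to 847 and 2489 CPM in young and aged CD8 T cells, and to 26697 and 24050 CPM in young and aged NK cells. The part of these markers' RNA in the Cd160 ratios was not tested. Ctla4 at -0.03, Tox at -0.02 and Icos at -0.18 lay near or below the median gene in CD8 T cells. Pdcd1, below the minimum of UMIs, was 3.61 higher (2.02 to 5.63), and Lag3 2.37 higher (1.20 to 3.62). Over the alternatives these ratios were 0.82 to 3.61 and 0.71 to 2.37, lowest with 5 CPM added. All 19 UMIs of Pdcd1 in aged CD8 T cells were in memory cells.

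In the regulatory T gate none of 3 members was past 2-fold, where 14.3% of all genes were. Icos was 0.91 higher in aged mice (0.35 to 1.48), Tox 0.40 and Ctla4 0.37 (0.08 to 0.66). The Icos ratio was 2.10 without the deepest 5% of cells, which include the young cell with 19 UMIs. In NK cells Tigit was lower in aged mice, at -2.51 (-4.90 to -0.76) on 21 and 3 UMIs, and Tox was at 0.17. Within the states, Tox was lower in aged naive CD8 cells at -0.64 (-1.14 to -0.17) and higher in aged Gzmk CD8 cells at 1.08 (0.07 to 2.27), on 9 and 68 UMIs.

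The aged-GA library was then set against the aged library, where GA cannot be told apart from other differences between the libraries. Both contrasts use the same aged library and are therefore not independent. None of the 4 members with enough UMIs was past 2-fold in CD4 T (0.564% of all genes), none of 4 in CD8 T (0.649%), none of 3 in regulatory T (2.08%) and none of 2 in NK cells (1.21%). The median gene moved by -0.03, -0.06, -0.02 and 0.03 in these gates. Ctla4 was at 0.09 in CD4 T cells (-0.09 to 0.27) and Icos at 0.06, both close to the median gene. Cd160 was at 0.06 in CD8 T and -0.09 in NK cells. Tox lay below 0 in each gate, at -0.24 in CD4 T (-0.52 to 0.04), -0.11 in CD8 T, -0.50 in regulatory T and -0.41 in NK cells. Its interval left out 0 in naive CD4 (-0.47, -0.88 to -0.06), memory CD4 (-0.48, -0.94 to -0.02) and memory CD8 cells (-0.34, -0.64 to -0.03), but not in naive CD8 cells, where Tox was at 0.39 (-0.16 to 0.96), or Gzmk CD8 cells, at -0.05. In memory CD8 cells without Gzmk, Tox was at 32.3 CPM in the aged (25.0 to 41.0) and 29.4 CPM in the aged-GA library (25.3 to 33.9).

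The rarer receptors had different values in CD4 and CD8 T cells. In CD8 T cells Pdcd1 had 19 UMIs among 4274417 in aged and 11 among 10566606 in aged-GA mice, and the log2 ratio was -2.09 (-3.31 to -0.95). In CD4 T cells Pdcd1 was at 9 and 30 UMIs, a ratio of 1.10 (-0.01 to 2.36). Lag3 was at -1.04 in CD8 T (-1.96 to -0.11) and -0.14 in CD4 T cells. In CD4 T cells without a UMI of Il2ra or Ikzf2, Lag3 was at 0.95 on 6 and 20 UMIs. In the memory cells of that gate it was at 1.55 on 2 and 10 UMIs. Over the alternatives Pdcd1 in CD8 T cells was at -2.09 to -0.64 and Lag3 there at -1.08 to -0.41. Ctla4 was lower in aged-GA memory CD8 cells at -1.01 (-1.36 to -0.65) and in Gzmk CD8 cells at -0.77 (-1.27 to -0.28), and higher in naive CD8 cells at 0.69 (0.19 to 1.21). Memory CD8 cells here include most Gzmk cells, and without them Ctla4 was at 22.2 CPM in the aged (16.2 to 29.6) and 14.9 CPM in the aged-GA library (12.1 to 18.2).

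**Figure D4:**
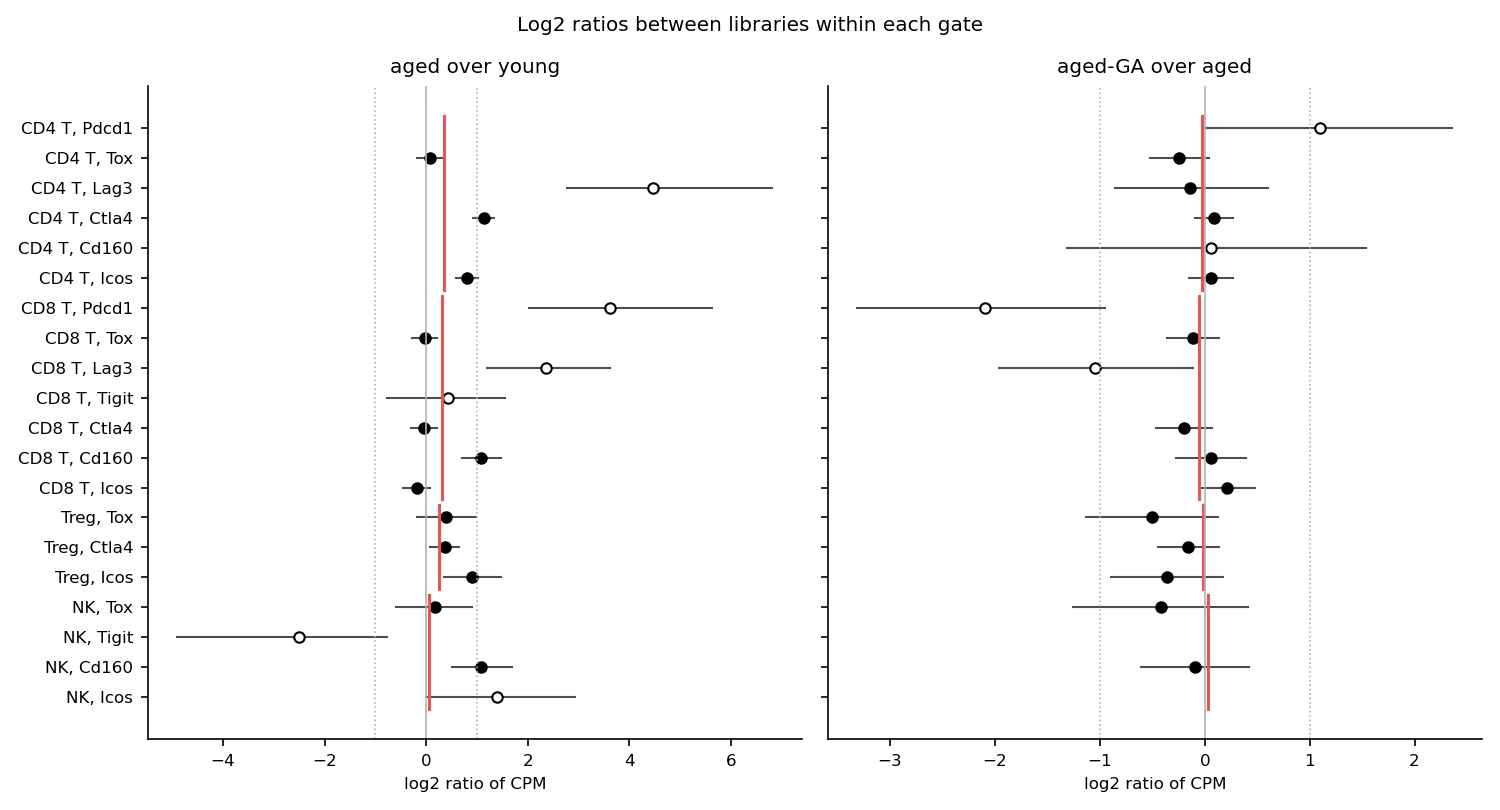
Log2 ratios of CPM, aged over young and aged-GA over aged, for members with at least 20 UMIs over both libraries in each gate, with 95% counting intervals; filled points have at least 50 UMIs and open points 20 to 49. The line marks the median of all genes in the gate and dots mark 2-fold. Ctla4 in CD4 T cells and Cd160 in CD8 T and NK cells lie past 2-fold in aged over young, and no filled point does so in aged-GA over aged.

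How many cells carried the genes was counted after each cell had been thinned to 2000 UMIs, because deeper cells show more genes. Ctla4 was found in 64.7%, 70.2% and 68.9% of young, aged and aged-GA regulatory T cells (78.6%, 88.2% and 84.4% before thinning). In CD4 T cells it was found in 13.4%, 22.2% and 26.1% (23.0%, 35.5% and 40.9%), and in CD8 T cells in 6.77%, 7.27% and 6.71% (15.2%, 14.5% and 15.4%). B cells, which should lack it, had 0.519%, 1.08% and 1.25% (1.30%, 2.38% and 2.71%), at median depths before thinning of 3387, 3082 and 3749 UMIs against 4794, 4062 and 4758 in CD4 T cells. All the T-cell shares lay above those of B cells.

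Tox was found in 17.6%, 42.6% and 24.4% of thinned regulatory T cells (37.1%, 60.8% and 55.6% before thinning) and Icos in 14.7%, 40.4% and 22.2% (14 of 70 young cells, then 56.9% and 60.0%), on 45 to 70 cells a library before thinning. In CD4 T cells Icos was found in 12.3%, 23.4% and 25.2% (28.2%, 36.3% and 42.2%) and Tox in 15.2%, 16.2% and 13.5% (30.9%, 27.8% and 26.9%). Cd160 was found in 1.91%, 4.66% and 4.68% of thinned CD8 T cells (5.79%, 11.6% and 12.8%) and in 5.69%, 10.6% and 11.2% of NK cells (9.70%, 16.1% and 16.7%), against at most 0.0788% of thinned B cells. Tigit was found in 3.56%, 0.503% and 0.485% of thinned NK cells.

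Cells in which 3 or more of the 8 genes were found at once were a minority in every gate and state. In aged regulatory T cells a further 31.9% held UMIs of 2 of the genes. Thinning hides genes that a cell holds, so these shares cannot tell how many cells were exhausted. At 2000 UMIs a cell, 0.404%, 3.11% and 3.30% of young, aged and aged-GA CD4 T cells (4, 15 and 22 cells) held UMIs of 3 or more of the 8 genes. Among CD8 T cells it was 0.0579%, 1.78% and 0.489% (1, 13 and 7 cells), among regulatory T cells 1.47%, 21.3% and 11.1% (1, 10 and 5 cells), and it was 0 of 2120, 3805 and 4802 B cells. Of the Gzmk CD8 cells, 10 aged cells (10.2%), 2 aged-GA cells (1.46%) and 0 of 15 young cells held 3 or more. Of the memory CD4 cells it was 7.69%, 7.08% and 5.43% (2, 8 and 10 cells). None of the 8 was found in 77.4%, 74.1% and 74.4% of CD8 T cells and 65.2%, 50.6% and 51.5% of CD4 T cells.

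Which genes met in the same cell was described for the commoner ones. Icos was found in 20.3% of the young CD4 T cells with Ctla4 (13.8 to 28.1) and 11.1% of those without (9.06 to 13.4), and in 35.6% (28.5 to 43.2) and 21.5% (18.0 to 25.4) in aged-GA mice. The aged shares were 29.9% and 21.6%. In CD8 T cells Tox was found in 30.2% of aged cells with Ctla4 (18.3 to 44.3) and 9.47% of those without (7.37 to 11.9), in 16.7% (9.84 to 25.7) and 7.49% (6.14 to 9.04) in aged-GA mice, and in 7.69% and 8.14% in young mice. Shares were also higher in cells with Ctla4 in every library for Tox in CD4 T cells and Icos in CD8 T cells. The other pairs counted went either way between libraries. In CD8 T cells with Cd160, Tox was found in 0%, 11.8% and 10.4% of young, aged and aged-GA cells. Without Cd160 it was 8.26%, 10.9% and 7.99%. Icos with Tox in CD4 T cells, and Ctla4 with Icos or Tox in regulatory T cells, also went either way. Cells are not replicates, so these are values of each library, and the intervals cover counting error only.

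**Figure D5:**
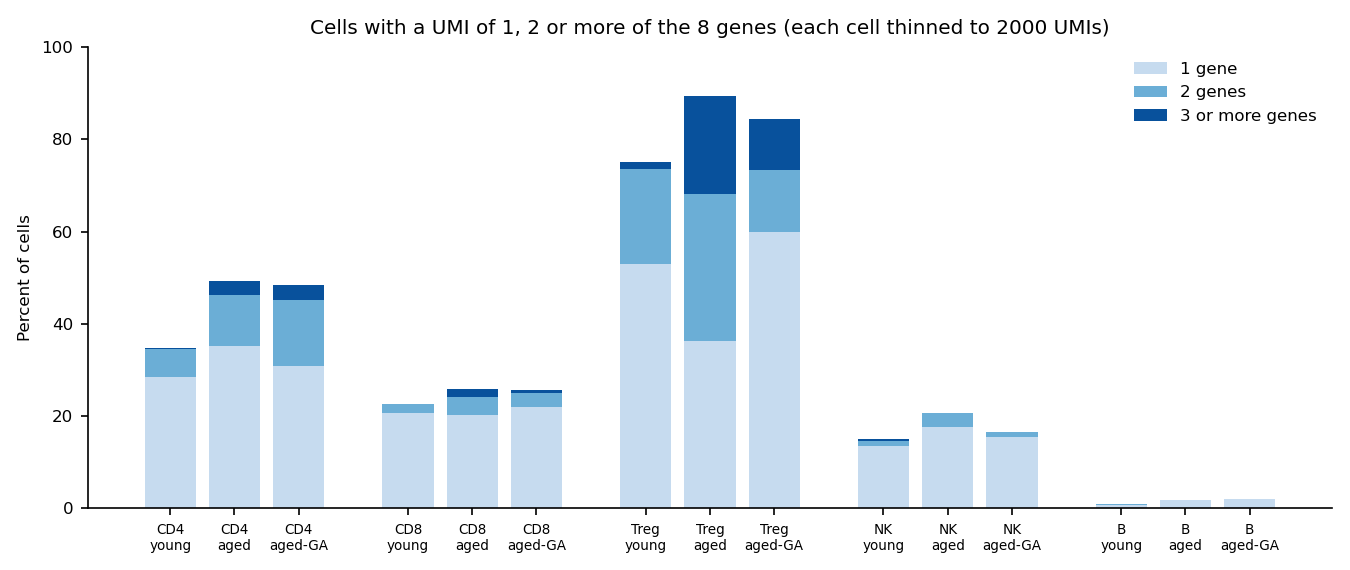
Percent of cells, each thinned to 2000 UMIs, that held UMIs of 1, 2, or 3 or more of the 8 genes, by gate and library. Regulatory T cells have the tallest bars, and B cells, the background, have the lowest, with none of the genes in 98.0% to 99.2% of cells.

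Other genes of the checkpoint pathways were taken from a list of 51: 15 further receptors, 11 ligands, 9 signalling genes and 16 transcription factors. The list was chosen with earlier results of these data known. Its counts and medians, here and below, are therefore a description beside those of all genes and not a test of the list. In CD4 T cells 35 had at least 50 UMIs in young and aged mice together, and 13 were past 2-fold higher in aged mice and 1 lower, where 11.4% of all genes were past 2-fold either way, with a median log2 ratio of 0.77 against 0.36 for all genes. The higher ones included Maf, a transcription factor of helper and regulatory T cells, at 32.6, 229 and 211 CPM in young, aged and aged-GA mice, and Tox2, a relative of Tox, at 2.01, 28.0 and 22.7 CPM. The lower one was Id3, an inhibitor of E proteins that naive T cells hold, at 139, 63.4 and 68.8 CPM. In CD8 T cells 9 of 40 were higher and 1, again Id3, was lower (7.92% of all genes either way), with a median of 0.50 against 0.31. Eomes, a T-box factor of memory CD8 T cells, was at 12.3, 80.5 and 71.0 CPM, while Tcf7, the factor of naive and self-renewing T cells, was at 402, 419 and 382 CPM. In regulatory T cells 7 of 16 were higher and 2 lower (14.3% of all genes), and in NK cells 1 of 31 was higher and 1 lower (3.94%).

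In aged-GA over aged, none of 36 genes of the list was past 2-fold in CD4 T (0.564% of all genes) and none of 17 in regulatory T cells (2.08%). In CD8 T cells 2 of 40 were lower, where 0.649% of all genes were past 2-fold either way: Lgals3, which encodes galectin-3, at 62.0 CPM in the aged and 25.6 CPM in the aged-GA library (8.08 in the young), and Maf at 19.2 and 8.14 CPM (6.27 in young). In NK cells 1 of 31, also Lgals3, was lower (1.21% of all genes). Lyz2, a myeloid gene, went the same way as Lgals3 in CD8 T cells, at 3.00, 89.8 and 23.8 CPM, and its part in that result was not tested.

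The same list was set against the cell types. Of 46 genes tested, 8 were higher and 2 lower in regulatory T than CD4 T cells by edgeR (3.47% of all genes called), among them the receptors of the TNF family Tnfrsf4 (2.29), Tnfrsf18 (1.87) and Tnfrsf9 (3.49), with Tcf7 lower at -1.51. In Gzmk over naive CD8 cells, 17 of 42 were higher and 2 lower (21.8% of all genes called). Tox2 was higher by 3.14, Eomes by 3.31, Nr4a2, a factor induced by the T-cell receptor, by 2.11, and Entpd1, which encodes the ectonucleotidase CD39, by 4.47, and Tcf7 was lower at -1.52. Not all of these were particular to Gzmk cells. Eomes and Entpd1 were also called higher, and Tcf7 lower, in memory CD8 cells without Gzmk over naive cells. In Gzmk over those memory cells Tox2, Eomes and Nr4a2 were called higher and Tcf7 lower, and Entpd1 was not called. Memory CD4 over naive CD4 cells had 20 higher and 6 lower of 42 (18.9% of all genes called), memory CD8 cells without Gzmk over naive 13 and 5 (12.5%), and Gzmk over those memory cells 11 and 3 (12.6%). CD8 T over CD4 T cells had 6 higher and 16 lower of 46 (13.7%), NK over CD8 T cells 17 and 14 (35.7%), and NK over CD4 T cells 15 and 20 (36.1%).

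The genes whose levels most resembled those of the members over the 12 sums of 4 gates and 3 libraries were taken by Pearson's r of log2 CPM, as a description over sums that share libraries. Ctla4 and Icos were each other's nearest gene, at 0.988 among 8277 genes, followed for Ctla4 by Ifi27l2a (0.981) and Igf1r (0.979) and for Icos by Igf1r (0.986) and Smco4 (0.978). For Tox the nearest were Sdhaf1 (0.967), Tnfrsf4 (0.962) and Ifi203 (0.962). Cd160 was nearest to Tm6sf1 (0.979), the granule gene Nkg7 (0.972) and As3mt (0.971).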

How the data were processed

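PBMCs of 3 groups of mice were measured by droplet single-cell RNA sequencing (10x Genomics, 3′ kit, version 3), 1 library a group, grouped by the labels. The authors mapped reads with Cell Ranger (5.0.0 per the file headers; mm10 per the submitters' processing notes, annotation not stated) and deposited the UMI counts of each barcode and gene, not normalized. The libraries held 10842, 16038 and 17332 barcodes and 58894294, 82260961 and 98155671 UMIs (young, aged, aged-GA).

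From these counts, cells were kept that had 200 genes or more, no more than 90% of the library's highest gene number and 7.5% or less mitochondrial UMIs, as in the study, with a limit of 10% haemoglobin UMIs added, which left 8349, 9045 and 10773. No doublet caller was run: T cells with over 1 UMI of B-cell or myeloid genes were left out. Gates needed 2 UMIs of Cd3 genes (T), 1 of Cd4, 1 of Foxp3, 2 of Cd8a with Cd8b1, 2 of the NK genes or 3 of Cd79a, Cd79b and Ms4a1 (B). The B gate had no myeloid limit, and Lyz2 was at 67.5, 1267 and 390 CPM there. Sums per gate and library were tested in edgeR 4.0.16 (R 4.3.3) with filterByExpr, TMM, a library block, the quasi-likelihood test and Benjamini-Hochberg adjustment at 0.05. The fit over states was added after the data were seen. Naive cells needed at least 1 UMI of any naive marker, of which 1 is not reported here. Alternatives used DESeq2 1.42.0, other filters, gates, pseudocounts and depths. numpy 2.4.6, scipy 1.17.1 and pandas 2.3.3 gave levels, exact intervals (counting error only, since cells of 1 library are no replicates) and thinning. Libraries pair the sums, since each library is the cells of 1 preparation: deviations from gate means correlated at 0.18 to 0.69 among gates of young, 0.05 to 0.57 of aged and 0.02 to 0.43 of aged-GA mice.

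Genes named are the 8 members, the 51 related genes, gate and check markers, and for each member with at least 200 UMIs the 3 genes of highest correlation over the 12 sums, without gate, receptor-segment, immunoglobulin, haemoglobin, mitochondrial and ribosomal protein genes. Members and lists were chosen with earlier results of these data known. The fits were tested on simulated data with known changes.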

Additional observations from a re-analysis of the deposited data

Results flagged for a closer look

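For 3 genes the ratio between the same libraries went in opposite directions in different cells, each with a counting interval that left out 0. With 1 library a group, none of these differences between cells was tested. Values here are log2 ratios with 1 CPM added. Tox, aged over young, was at -0.62 in naive CD8 cells and 1.07 in Gzmk CD8 cells, which held 9 UMIs in young mice. Icos, aged over young, was at 0.80 in CD4 T, 0.91 in regulatory T, 1.28 in NK and 0.38 in naive CD4 cells, and at -1.24 in Gzmk CD8 cells, where it had 14 UMIs in young and 21 in aged mice. Ctla4, aged-GA over aged, was at 0.67 in naive CD8 cells, -0.98 in memory CD8 cells and -0.77 in Gzmk CD8 cells, and the last are mostly part of the memory cells.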

How the results depend on the processing

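No called cell type difference and no ratio past 2-fold changed sign under an alternative. Among the values not past a threshold there were 43 changes of sign, counted once per value and alternative. They included Ctla4, aged over young, in memory CD4 cells (0.66, and -0.08 in the gate without Il2ra or Ikzf2). Pdcd1 in regulatory T over CD4 T cells (0.87, and -0.38 without the young library) was another. So were Lag3 there (0.60, and -0.72 without the aged library) and Lag3 in NK over CD4 T cells (-0.82, and 0.08 with the CD4 gate without Il2ra or Ikzf2). The count of members called in regulatory T over CD4 T cells (2) was 1 to 3 with 1 library left out, and in memory over naive CD4 cells (5) it was 2 to 5, and 3 without the library block, which pairs the sums. In Gzmk CD8 over memory CD8 cells without Gzmk (5) it was 3 without the block. The number of members past 2-fold in aged over young (3) was 8 at a minimum of 20 UMIs. It was 1 with CPM computed without haemoglobin, mitochondrial and ribosomal protein genes (Cd160 in NK cells). With 5 CPM added it was 1, and with no limit on haemoglobin it was 1 (both Ctla4 in CD4 T cells). In aged-GA over aged (0) it was 1 at 20 UMIs (Pdcd1 in CD8 T cells, lower). Without those 3 gene classes the aged over young ratio in CD4 T cells was 0.90 for Ctla4 and 0.58 for Icos. The cause of these moves was not tested. Counted once per value and alternative, single-gene cell type differences kept their side of the threshold 327 times, gained it 8 times and lost it 25 times. Counted the same way, log2 ratios moved by less than their counting error 792 times and by more 23 times. The shares of cells depend on the depth, and were also taken at 1000 or 3000 UMIs a cell and without thinning. Counted once per share and alternative, 171 stayed within their interval at 2000 UMIs and 117 did not.

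Counts over all genes moved more. Without the block, calls went from 329 to 77 in regulatory T over CD4 T, 1300 to 355 in CD8 T over CD4 T, 3379 to 2243 in NK over CD8 T, 1634 to 897 in memory over naive CD4, 1079 to 437 in memory CD8 without Gzmk over naive and 1087 to 400 in Gzmk over memory CD8 cells. With 1 library left out they were 50 to 574, 324 to 2138, 2227 to 3112, 949 to 1419, 471 to 1280 and 440 to 1229, and 976 to 2013 in Gzmk over naive CD8 cells (1888). Regulatory T over CD4 T had 717 without a filter on low counts and 604 with a CD4 gate free of Il2ra and Ikzf2. Depth limits Pdcd1, Lag3, Tigit and Havcr2 most, at 84, 151, 93 and 29 UMIs over all gates and libraries. No paired analysis was possible for ratios between libraries because each group is 1 library.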
